A study of Mus musculus with 12 samples.

Results

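A set of 8 genes of the podocyte surface and of its signalling, chosen by name, was followed across glomeruli and podocyte cultures of mice in which 2 forkhead genes can be deleted: Thsd7a, Pla2r1, Enpep, Mme, Dpp4, Ptpro, Plce1 and Nes. Probes were assigned to a gene through the RefSeq accession that the array lists for them, and all 8 genes had at least 1 probe. They stand for 8 of the 15226 named genes that were tested. Their 11 probes were well above background on all 12 arrays, so none of the 8 entered through only the group in which it was high. Total RNA was labelled with Cy3 and hybridised to one-colour Agilent arrays, 1 sample per array and 2 samples in each of 6 groups. Adult mice carried an inducible Cre and floxed Foxc1 and Foxc2 alleles; the Cre is named CreERT2 in the design text, and the promoter that drives it is not given in the sources used here. The first group was glomeruli of mice given tamoxifen by i.p. injection at 8 weeks of age, over 3 days in a row, with isolation on day 7, and its counterpart was glomeruli of control mice that received no agent. The other groups were primary podocytes grown out from glomeruli of adult mice and exposed to the active form of tamoxifen for 4 or 7 days, each with mock-treated cultures of the same duration. All 6 groups shared the Cre and the floxed alleles, so tamoxifen itself and recombination cannot be told apart. In the genotype labels the number after the second Foxc varies by sample, and Foxc2 is taken from the title of the series.

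Podocytes are the epithelial cells that wrap glomerular capillaries with interdigitating foot processes and form the outer layer of the filtration barrier. Their surface carries peptidases that cut small peptide hormones, receptors, and proteins that become targets of antibodies in membranous nephropathy, a human disease in which immune deposits form under the foot processes. Thsd7a, a membrane protein with thrombospondin type 1 repeats, and Pla2r1, the M-type phospholipase A2 receptor, are such antigens in human adults, and Mme (neprilysin) is one in newborns of mothers who lack it. Enpep (aminopeptidase A) cuts the N-terminal acidic residue from angiotensin II, and Dpp4 removes N-terminal dipeptides; these 3 peptidases are also known from the brush border of the proximal tubule. Ptpro, also called GLEPP1, is a receptor-type tyrosine phosphatase of the foot process membrane, Plce1 is phospholipase C epsilon, whose loss causes a nephrotic syndrome in humans, and Nes encodes nestin, an intermediate filament protein that mature podocytes contain.

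The Foxc proteins are forkhead transcription factors, a family known for a core site that reads TAAACA or TAAATA, so the 250 bases before the start site were searched on both strands for these 2 words. RefSeq promoter sequences of build GRCm38.p6 were found for all 8 genes, with 10 start sites in all (3 of them of Mme), and 3 of the 10 windows held a match against 22.1% of 32851 windows of all genes (12% with TAAACA and 12.7% with TAAATA). The sequences of Enpep and Ptpro are shown because these genes differed most between tamoxifen and mock cultures and in opposite directions, and that of Thsd7a because it passed the test in glomeruli. Each is written 5' to 3' on the strand of the gene, ends at the base before the start site, and has the match in capitals. Enpep lies on the minus strand with its window at chr3:129332750-129332999, Ptpro on the plus strand at chr6:137252049-137252298 and Thsd7a on the minus strand at chr6:12749254-12749503.
Enpep: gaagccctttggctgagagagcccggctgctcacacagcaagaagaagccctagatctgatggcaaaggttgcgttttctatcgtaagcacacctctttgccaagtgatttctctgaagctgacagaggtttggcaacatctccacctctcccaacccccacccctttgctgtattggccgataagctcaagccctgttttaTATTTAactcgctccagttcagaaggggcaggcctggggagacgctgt
Ptpro: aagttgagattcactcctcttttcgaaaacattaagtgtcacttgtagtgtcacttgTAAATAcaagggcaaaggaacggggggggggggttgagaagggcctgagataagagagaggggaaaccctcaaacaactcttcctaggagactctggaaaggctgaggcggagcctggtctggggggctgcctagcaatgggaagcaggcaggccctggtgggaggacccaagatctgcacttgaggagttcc
Thsd7a: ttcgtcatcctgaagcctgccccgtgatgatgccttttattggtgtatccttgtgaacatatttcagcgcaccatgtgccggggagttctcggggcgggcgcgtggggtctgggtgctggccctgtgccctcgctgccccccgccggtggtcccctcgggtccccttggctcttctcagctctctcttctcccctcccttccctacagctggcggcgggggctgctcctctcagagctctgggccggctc
The match of Enpep is TAAATA on the opposite strand, at position -48 from the start site, and that of Ptpro is TAAATA on the gene's own strand, at position -193. The Thsd7a window held neither word. The third match was TAAACA in Pla2r1, on the opposite strand at position -85. No window held more than 1 match, so no matches overlapped. A match describes these letters only, and the share among the 8 genes' windows was not tested against that of all windows.

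The targeted genes were checked first. In glomeruli Foxc2 read -1.12 and -0.19 after tamoxifen, against 2.10 and 2.24 in controls, where values are log2 signal relative to the 75th percentile of the same array, the scale used throughout (difference -2.82, limma, adjusted p = 0.0368, called in 3 of 12 fits that left out a single array). In cultures Foxc2 was not well above background on any of the 4 tamoxifen arrays and was at least 139-fold lower at day 4 and at least 151-fold lower at day 7 than in mock cultures (adjusted p = 0.00195 and 7.08e-04); these bounds set the mock mean against the lowest signals that counted as well above background. Foxc1 was 0.92 and 1.09 in tamoxifen glomeruli, against 2.92 and 2.80 in controls, and was well above background on 1 of 2 tamoxifen arrays at each culture time. Its difference did not pass the test in any of the 3 comparisons (adjusted p from 0.0566 to 0.627), though both tamoxifen arrays lay below both others in each. Averaged over both culture days, a comparison chosen after the data had been seen, the Foxc1 difference passed (-8.31, limma, adjusted p = 0.0104). Its size is uncertain, since some of those tamoxifen arrays were not well above background. Whether the probes of either gene lie in the deleted part is not given in the sources used here. The 75th percentile signal of the arrays ran from 505 to 760 intensity units over a median background of 24.5 to 34, 57.9 to 63.4% of spots were well above background, and no spot was saturated. Replicates correlated at 0.983 to 0.990 across genes. All 19 podocyte markers tested were well above background in glomeruli and at least 18 of 19 in each culture group. In contrast, 12 to 15 of 22 tubule markers were not well above background on either array of a culture group. Umod, Slc12a1, Hnf4a, Kap and Pck1 were among them. Markers of other cells were well above background in each culture group too: all 12 mesangial and mural, all 7 fibroblast, at least 7 of 8 parietal epithelial and 12 of 14 endothelial markers. Detection thus did not single out podocytes. The summed tubule signal was 268 to 442 times the 75th percentile in tamoxifen glomeruli, against 152 to 155 in control glomeruli, and 0.80 to 1.11 in all culture groups. Each slide held 1 tissue or culture time with both of its groups, so every tamoxifen comparison lies within 1 slide, while slide cannot be told apart from tissue or from day. On the glomerular slide, controls were at array positions 1 and 2 and tamoxifen samples at 3 and 4. Position and treatment cannot be told apart there. On the culture slides, replicate 1 was at positions 1 and 2 and replicate 2 at 3 and 4, so replicate number cannot be told apart from position. For the cultures the labels do not say whether numbered samples are separate cultures, so the spread between them may be technical.

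In glomeruli, all 8 genes had a lower mean after tamoxifen than in controls, and Thsd7a was the one whose decrease passed the test at an adjusted p under 0.05 (limma, Benjamini-Hochberg over 15226 genes). Of all genes tested, 2.6% passed in either direction and 0.854% as lower. The median difference of the 8 was -0.50, beside -0.05 for all genes. Both tamoxifen arrays lay below both control arrays for 4 of the 8, Thsd7a, Dpp4, Ptpro and Plce1, against 27.7% of all genes lower in this way. In cultures no member passed at day 4 or at day 7, where 0.21% and 0.972% of all genes did. Same-numbered cultures deviated together, and with the replicate number as a block Enpep passed at both days (adjusted p = 0.0402 and 0.02) and Dpp4 and Ptpro at day 7 (adjusted p = 0.0172 and 0.0389), while calls over all genes went up to 236 and 641 of 15226. At day 4, 3 genes (Enpep, Mme and Nes) were higher on both tamoxifen arrays than on both mock arrays and 4 (Thsd7a, Pla2r1, Dpp4 and Ptpro) were lower, against 29% and 21.4% of all genes. At day 7 the same 3 genes were higher and Thsd7a, Dpp4 and Ptpro were lower, against 22.1% and 19.1% of all genes. In the glomerular comparison 3 of the 8 had an unadjusted p under 0.05, as did 4 and 5 in the day 4 and day 7 cultures, beside 18.3%, 10.9% and 12.1% of all genes. The median difference of the 8 was -0.28 at day 4 and -0.34 at day 7, beside 0.02 and 0.00 for all genes.

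**Figure D1:**
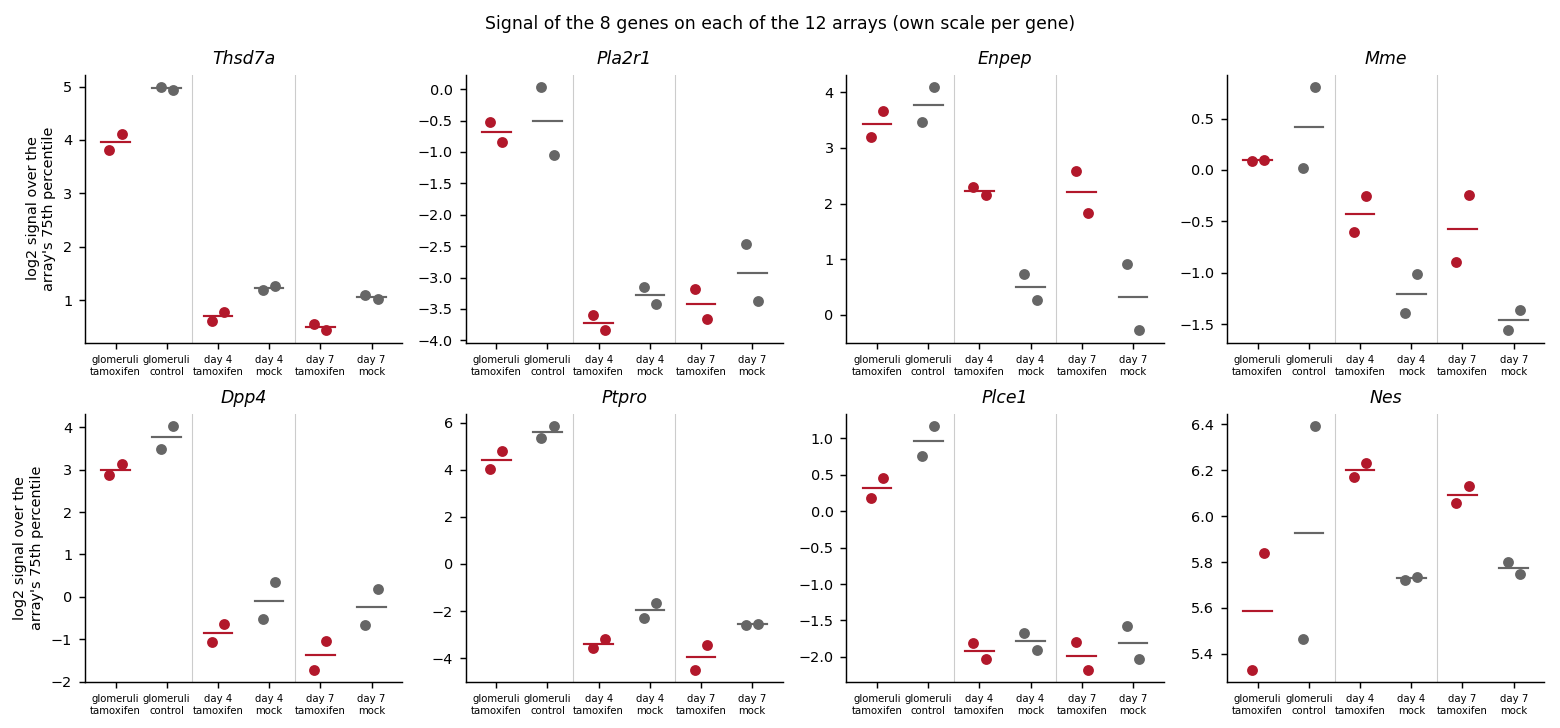
Signal of the 8 genes on each of the 12 arrays, as log2 over the array's 75th percentile, with 1 panel and 1 scale per gene; red points are tamoxifen samples, grey points control or mock samples, and bars the means of 2. Enpep, Mme and Nes have both red points above both grey points at each culture day. Thsd7a, Dpp4 and Ptpro have both red points below both grey points in glomeruli and at each culture day. Levels should be compared within a panel only.

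Among the antigens, Thsd7a fell in glomeruli. It read 3.82 and 4.11 on the tamoxifen arrays, against 5.0 and 4.94 on the control arrays, a difference of -1.0 (SE 0.13, n = 2 each, adjusted p = 0.0173), or 2.01-fold lower. The 2 groups were separate. In bulk RNA, fewer podocytes, a larger share of other tissue and less RNA per podocyte cannot be told apart. The summed tubule signal was 268 to 442 in tamoxifen glomeruli, against 152 to 155 in controls, and its part in the Thsd7a values was not tested. The call was lost without control replicate 1 (difference -0.98, adjusted p = 0.0587) and without tamoxifen replicate 1 (-0.86, adjusted p = 0.0599), as well as with normexp background correction (adjusted p = 0.0736) and in a fit of the 4 glomerular arrays alone (adjusted p = 0.266). At day 4 of culture Thsd7a read 0.61 and 0.78 with tamoxifen, against 1.18 and 1.26 with mock treatment (difference -0.53, SE 0.13, adjusted p = 0.163). At day 7 it read 0.55 and 0.44 with tamoxifen, against 1.09 and 1.01 with mock treatment (difference -0.56, SE 0.13, adjusted p = 0.105). Tamoxifen cultures were thus below mock cultures on every array at both days, without passing the test at either day.

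Thsd7a is read by 3 probes, and they showed the same direction in all 3 tamoxifen comparisons. In a fit of 19994 named probes, their glomerular differences were -0.95 (adjusted p = 0.0148), -1.11 (adjusted p = 0.0497) and -1.0 (adjusted p = 0.0183), so each passed there as well. In cultures they ran from -0.46 to -0.53 at day 4 and from -0.56 to -0.74 at day 7, and none passed. The 2 probes of Mme also ran together, with differences of -0.22 and -0.32 in glomeruli, 0.71 and 0.77 at day 4, and 0.81 and 0.89 at day 7, none of them past the test. The other 6 genes have 1 probe each, so they rest on a single reading.

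**Figure D2:**
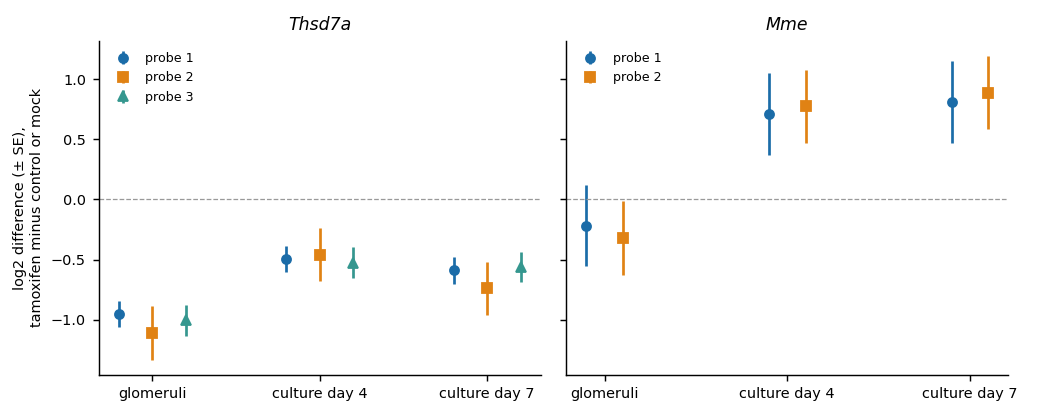
Log2 difference between tamoxifen and control or mock samples for each probe of Thsd7a (3 probes, left) and Mme (2 probes, right) in glomeruli and at both culture days; symbols are fitted differences and bars 1 SE. The 3 Thsd7a probes lie at -1.11 to -0.95 in glomeruli, and the Mme probes lie below 0 in glomeruli and at 0.71 to 0.89 in cultures.

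Pla2r1, the other adult antigen, read -0.52 and -0.84 in tamoxifen glomeruli, against 0.04 and -1.05 in control glomeruli. The control arrays lay on either side of the tamoxifen arrays, and the difference of -0.17 (SE 0.40, 95% interval -1.11 to 0.76, adjusted p = 0.871) was smaller than the spread. At day 4 it read -3.60 and -3.84 with tamoxifen, against -3.15 and -3.42 with mock treatment (difference -0.44, SE 0.40, adjusted p = 0.799). Day 7 cultures read -3.18 and -3.66 with tamoxifen, against -2.47 and -3.37 with mock treatment (difference -0.50, SE 0.40, adjusted p = 0.705). The groups were separate at day 4 and overlapped at day 7. Which cells of the mouse glomeruli gave the Pla2r1 signal cannot be read from bulk RNA.

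The 3 surface peptidases had lower means in tamoxifen glomeruli and did not share a direction in culture. Enpep was higher with tamoxifen in culture and not in glomeruli. It read 2.30 and 2.16 in tamoxifen cultures at day 4, against 0.74 and 0.26 in mock cultures, a difference of 1.73 (SE 0.43, 3.32-fold, adjusted p = 0.185). At day 7 it read 2.59 and 1.82 with tamoxifen, against 0.90 and -0.28 with mock treatment, a difference of 1.89 (SE 0.43, 3.72-fold, adjusted p = 0.11). The 4 tamoxifen cultures all lay above the 4 mock cultures, and leaving out 1 array at a time the day 7 difference ran from 1.30 to 2.49, with an adjusted p up to 0.493 and 1 of 12 fits called (0.044, without mock replicate 1). In glomeruli Enpep read 3.19 and 3.66 after tamoxifen, against 3.46 and 4.10 in controls (difference -0.35, SE 0.43, 95% interval -1.36 to 0.65, adjusted p = 0.735), with overlapping groups. The tubule markers, of which the summed signal was higher in the tamoxifen glomeruli, were at 0.80 to 1.11 in every culture group, and their part in the glomerular values was not tested.

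Mme followed Enpep in culture with smaller differences. It read -0.60 and -0.26 with tamoxifen at day 4, against -1.39 and -1.01 with mock treatment (difference 0.77, SE 0.31, adjusted p = 0.409). Its day 7 values were -0.90 and -0.25 with tamoxifen, against -1.56 and -1.36 with mock treatment (difference 0.89, SE 0.31, adjusted p = 0.278). Tamoxifen cultures were above mock cultures on every array within a day, and neither day passed the test. In glomeruli Mme read 0.09 and 0.10 after tamoxifen, against 0.02 and 0.81 in controls, so the groups overlapped (difference -0.32, SE 0.31, adjusted p = 0.646). Dpp4 went the other way in culture. It read -1.07 and -0.63 with tamoxifen at day 4, against -0.51 and 0.34 with mock treatment (difference -0.76, SE 0.40, adjusted p = 0.566). Day 7 values were -1.72 and -1.04 with tamoxifen, against -0.66 and 0.17 with mock treatment (difference -1.13, SE 0.40, adjusted p = 0.293). In glomeruli it read 2.87 and 3.13 after tamoxifen, against 3.49 and 4.03 in controls (difference -0.76, SE 0.40, adjusted p = 0.371). Dpp4 was thus lower with tamoxifen in all 3 settings with no overlap between the groups, and passed the test in none. Leaving out 1 array at a time, its difference ran from -1.03 to -0.49 in glomeruli, from -1.19 to -0.33 at day 4 and from -1.55 to -0.72 at day 7. With the replicate block it passed at day 7 (adjusted p = 0.0172) and not at day 4 (adjusted p = 0.0572).

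Ptpro, the foot process phosphatase, had the largest decrease in fitted mean of the 8 genes in each of the 3 tamoxifen comparisons, none of which passed the test. In glomeruli it read 4.02 and 4.79 after tamoxifen, against 5.36 and 5.86 in controls (difference -1.20, SE 0.40, 2.30-fold, adjusted p = 0.167). At day 4 it read -3.56 and -3.20 with tamoxifen, against -2.28 and -1.65 with mock treatment (difference -1.41, SE 0.40, 2.66-fold, adjusted p = 0.243). At day 7 it read -4.48 and -3.44 with tamoxifen, against -2.59 and -2.54 with mock treatment (difference -1.40, SE 0.40, 2.64-fold, adjusted p = 0.187). The groups did not overlap in any of them. With normexp background correction the day 4 difference was -0.022 and the day 7 difference -0.75. On that corrected scale Ptpro read -1.105 and -1.825 on the day 4 tamoxifen arrays, whose 5th percentiles were -1.30 and -2.52. The day 7 tamoxifen arrays read -2.84 and -2.37, with 5th percentiles of -3.56 and -3.33. The part of this floor in the smaller differences was not tested.

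Plce1, the phospholipase, was lower in tamoxifen glomeruli and close to its mock level in culture. It read 0.18 and 0.46 in tamoxifen glomeruli, against 0.75 and 1.17 in control glomeruli (difference -0.64, SE 0.23, 1.56-fold, adjusted p = 0.188), without overlap. In culture it read -1.80 and -2.03 with tamoxifen, against -1.67 and -1.90 with mock treatment at day 4, and -1.80 and -2.18 with tamoxifen, against -1.58 and -2.03 with mock treatment at day 7. Those groups overlapped, and the differences of -0.13 and -0.18 had 95% intervals of -0.66 to 0.39 and -0.71 to 0.35. Nestin, the filament gene, was bright in every group. Nes read 5.33 and 5.84 in tamoxifen glomeruli, against 5.46 and 6.39 in control glomeruli (difference -0.34, SE 0.28, adjusted p = 0.583), with overlap. In culture it read 6.17 and 6.23 with tamoxifen, against 5.72 and 5.74 with mock treatment at day 4 (difference 0.47, SE 0.28, adjusted p = 0.625). At day 7 it read 6.06 and 6.13 with tamoxifen, against 5.80 and 5.75 with mock treatment (difference 0.32, SE 0.28, adjusted p = 0.741). The culture pairs agreed closely and did not overlap between treatments, and the pooled spread on which the test rests came mainly from the glomerular pairs, whose SD was 0.36 with tamoxifen and 0.66 in controls against 0.01 to 0.05 in the 4 culture groups.

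**Figure D3:**
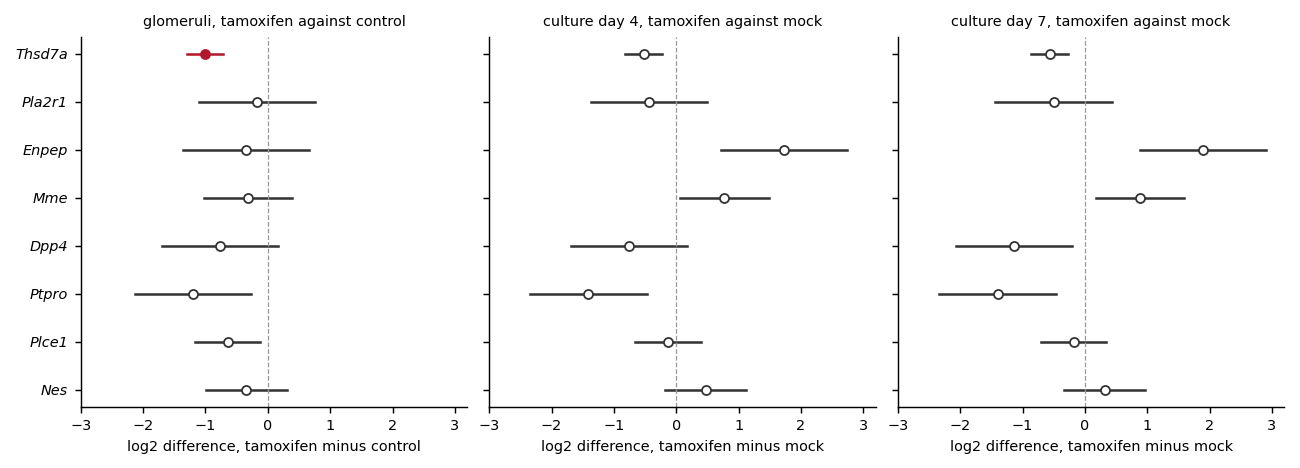
Log2 differences of the 8 genes, tamoxifen minus control in glomeruli (left) and tamoxifen minus mock in cultures at day 4 (middle) and day 7 (right); lines are 95% intervals of the limma fit and the filled red symbol marks an adjusted p under 0.05. Thsd7a in glomeruli is the one filled symbol; Enpep lies at 1.73 and 1.89 in the cultures and at -0.35 in glomeruli.

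No difference between the responses at the 2 culture times was detected for the 8 genes with these arrays. The day 7 difference minus the day 4 difference lay between -0.37 (Dpp4) and 0.16 (Enpep), with no adjusted p below 1, and 0% of all genes passed that test (136 genes at an unadjusted p under 0.05). Mock cultures at day 7 against day 4 differed by -0.60 (Ptpro) to 0.36 (Pla2r1) and no member passed, against 0.0328% of all genes. Averaged over both days, a comparison chosen after the data had been seen, tamoxifen against mock gave 1 member that rose and 2 that fell, against 5.1% of all genes called in either direction, 2.84% as higher and 2.27% as lower. Enpep rose by 1.81 (SE 0.31, 4 arrays each, adjusted p = 0.0186), Ptpro fell by 1.41 (SE 0.29, adjusted p = 0.0325) and Thsd7a fell by 0.54 (SE 0.09, adjusted p = 0.0166). Mme (0.83, adjusted p = 0.0725), Dpp4 (-0.95, adjusted p = 0.108) and Nes (0.40, adjusted p = 0.311) had the same sign at both days and did not pass, though each did with the replicate block (adjusted p = 0.0197, 0.00552 and 0.0343). The call of Ptpro was lost with normexp background correction (-0.39, adjusted p = 0.261) and in a fit of the arrays compared alone (adjusted p = 0.0541). The averaged calls depended on single arrays. Leaving out 1 array at a time, Enpep was called in 8 of 12 fits, Thsd7a in 7 and Ptpro in 6, with adjusted p up to 0.0759, 0.0744 and 0.123, each without day 4 mock replicate 2. All 3 calls were also lost without day 4 tamoxifen replicate 1 or day 7 tamoxifen replicate 1. Those of Enpep and Ptpro were lost without day 4 tamoxifen replicate 2, those of Thsd7a and Ptpro without day 7 mock replicate 2, that of Thsd7a without day 7 tamoxifen replicate 2 and that of Ptpro without day 7 mock replicate 1.

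Whether glomeruli and cultures responded differently was tested as the glomerular difference minus the mean culture difference. None of the 8 genes passed, where 1.09% of all genes did, and 3 of the 8 had an unadjusted p under 0.05, beside 16.9% of all genes. The widest gap was that of Enpep, -2.16 (SE 0.53, 95% interval -3.39 to -0.93, adjusted p = 0.0962). With the replicate block its limma adjusted p was 0.0256, but that block also pairs glomerular arrays of different mice by number. Mme followed with -1.15 (SE 0.37, 95% interval -2.02 to -0.28, adjusted p = 0.177). Thsd7a (-0.46, adjusted p = 0.188), Plce1 (-0.49, adjusted p = 0.44) and Nes (-0.74, adjusted p = 0.333) were likewise more negative in glomeruli. For Pla2r1, Dpp4 and Ptpro the gap was 0.29, 0.19 and 0.20, less than 1 SE in each case.

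Related genes were described as lists beside the 8. In glomeruli, Synpo was the 1 of 19 other podocyte markers that passed (synaptopodin, an actin-associated protein of foot processes, difference -1.32, SE 0.24, adjusted p = 0.0368), and 17 of the 19 had a lower mean (median -0.39). Its call held in 1 of 12 fits with a single array left out. None of 10 other nephropathy antigens and none of 16 other podocyte surface genes passed (medians -0.11 and -0.19); the antigen with the widest gap, Pcdh7, was not well above background in controls (at least 1.90-fold higher after tamoxifen, adjusted p = 0.051) and was so on 1 of 2 tamoxifen arrays. The other membrane peptidases held 2 genes that passed: Ggt1, a gamma-glutamyltransferase, rose by 1.54 (SE 0.23, adjusted p = 0.0233) and Mep1a, the meprin alpha subunit, rose by 1.38 (SE 0.28, adjusted p = 0.0475), and 11 of 15 had a higher mean (median 0.24). Both are brush border enzymes of the proximal tubule. Beside them, 20 of 22 tubule markers were higher on average, 2 of them past the test (Slc22a6 by 1.65, adjusted p = 0.0149, and Slc12a1 by 1.48, adjusted p = 0.0308) and a median of 1.37, and their part in these values was not tested. The calls for Ggt1, Mep1a, Slc22a6 and Slc12a1 held in 10, 1, 12 and 3 of those 12 fits. None of 16 other receptor-type phosphatases, 13 other phospholipases C, 9 other intermediate filament genes or 8 relatives and ligands of Pla2r1 and Thsd7a passed in glomeruli. The widest differences among the phosphatases were 1.13 for Ptprf (adjusted p = 0.224) and -0.95 for Ptpru (adjusted p = 0.316).

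Other compartments also differed between the glomerular groups. The summed podocyte marker signal was 392 to 529 times the 75th percentile in tamoxifen glomeruli, against 547 to 724 in controls, and the endothelial sum was 299 to 316, against 356 to 431, with 12 of 14 endothelial markers lower on average and none past the test. All 6 red blood cell markers had a lower mean (median -4.52), 5 of them without overlap. Their sum was 0.91 to 7.45, against 39.3 to 87.6 in controls. Of the 6, 4 passed, Hbb-bt, Hbb-b2, Hba-a2 and Alas2, and their calls held in 2, 12, 1 and 10 of 12 fits with a single array left out. Of 11 immune cell markers 10 had a lower mean, all 10 without overlap (median -0.75). Their sum was 5.95 to 8.26, against 11.4 to 11.9 in controls, and Ms4a1 passed (difference -1.94, adjusted p = 0.0233, held in 9 of 12 such fits). Among the mesangial and mural markers all 12 had a higher mean and Acta2 rose by 1.1 (adjusted p = 0.0163). Their summed signal overlapped, at 83.5 to 86.6 in tamoxifen glomeruli, against 49.0 to 94.9 in controls. The fibroblast sum was 38.8 to 52.2, against 19.6 to 35.3, with 5 of 7 genes higher on average, 2 lower and none past the test. The parietal epithelial sum overlapped, at 5.12 to 6.09, against 5.48 to 6.65. The part of these shifts in the values of the 8 genes was not tested.

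In cultures some relatives of the 8 genes were called. Among 16 other receptor-type phosphatases, Ptprt rose: it was not well above background in mock cultures at day 4 and at least 3.89-fold higher with tamoxifen (adjusted p = 0.00272), and at day 7 its difference was 2.26 (SE 0.19, adjusted p = 0.00594) with 1 of 2 mock arrays well above background. Among 13 other phospholipases C, Plcl2, a phospholipase-related protein without catalytic activity, fell by 2.40 at day 7 (SE 0.32, adjusted p = 0.0228) and had a difference of -2.25 at day 4 (adjusted p = 0.051). It read -2.34 and -1.77 with tamoxifen at day 7, against -0.12 and 0.81 with mock treatment. Of 19 other podocyte markers none passed at day 4 and 2 fell at day 7, the transcription factor gene Foxd1 by 2.23 (adjusted p = 0.0448) and Clic5, an ezrin-associated protein of foot processes, by 1.57 (adjusted p = 0.0328); their calls held in 0 and 4 of 12 fits with a single array left out, and that of Plcl2 in 9. None of 10 other antigens, 16 other surface genes or 15 other peptidases passed at either day, and Crb2, a slit diaphragm polarity protein, was 1.62 higher at day 4 (adjusted p = 0.343) and 1.90 higher at day 7 (adjusted p = 0.203). In the culture groups the mesangial and mural sum was 628 to 679 with tamoxifen, against 477 to 508 with mock treatment at day 4, and 607 to 634, against 466 to 559 at day 7; yet 6 of its 12 genes had a higher and 6 a lower mean at both days (medians -0.02 and -0.12), and its 1 called gene, Rgs5, fell by 2.82 at day 7 (adjusted p = 0.0139, held in 10 of 12 such fits). The parietal epithelial sum was 14.3 to 23.5 with tamoxifen, against 29.3 to 35.8 at day 4, and 10 to 17.6, against 28.7 to 32.8 at day 7; Cldn1 of that list fell at day 7 (difference -1.95, adjusted p = 0.0312, held in 3 of 12 such fits), while 5 of the 8 genes at day 4 and 4 of 8 at day 7 had a higher mean (medians 0.25 and 0.01). Their part in the culture values was not tested.

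On the average of both culture days, on which 3 of the 8 genes were called, 5 of 13 other phospholipases C were called as well, 2 higher and 3 lower. Plcl2 fell by 2.33 and Plcb1 fell by 1.31, while Plcb4 rose by 0.58 and Plcl1 by 0.57 (adjusted p = 0.00328, 0.0486, 0.0413 and 0.012), and these calls held in 12, 2, 4 and 10 of 12 fits with a single array left out. Of 16 other receptor-type phosphatases Ptprt rose and Ptprk fell (difference -0.70, adjusted p = 0.00802), both in all 12 such fits. Among 19 other podocyte markers Foxd1, Clic5 and Npnt fell, by 2.05, 1.38 and 1.02, in 12, 12 and 4 of the fits. Tgfbr3 of the antigens (0.59, adjusted p = 0.0201), Crb2 of the surface genes (1.76, adjusted p = 0.0486) and Synm of the filament genes (-1.80, adjusted p = 0.0202) were also called, in 6, 1 and 6 of the fits, and none of the 15 other peptidases was.

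**Figure D4:**
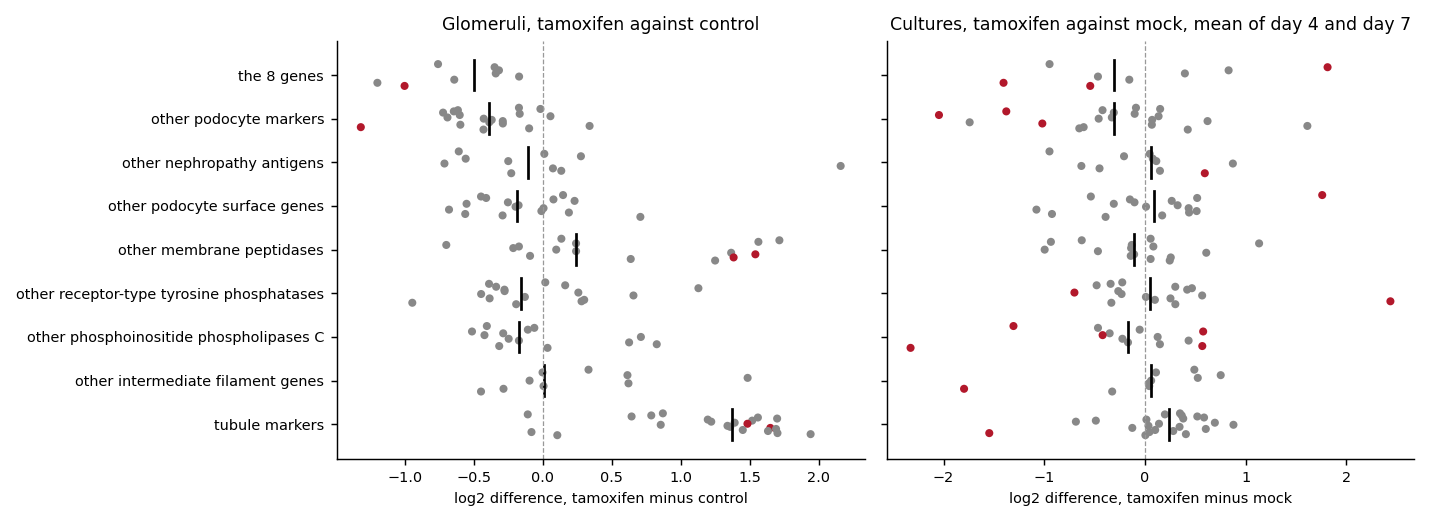
Log2 differences of the 8 genes and of related gene lists, tamoxifen minus control in glomeruli (left) and tamoxifen minus mock averaged over both culture days (right); each point is a gene, red where the adjusted p was under 0.05, the black bar is the list's median, and the 2 panels have their own scales. In glomeruli the 8 genes have a median of -0.50 and the tubule markers one of 1.37; in cultures the medians are -0.31 and 0.24.

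Except for Nes, the genes differed more widely between mock cultures and control glomeruli than in any of the 3 tamoxifen comparisons. In mock cultures of both days against control glomeruli, 7 of the 8 genes were called and all 7 were lower, where 25.9% of all genes were called lower and 63.7% in either direction. The median difference of the 8 was -3.07, beside 0.18 for all genes. Ptpro had the widest, -7.87 (SE 0.35, 234-fold, adjusted p = 1.01e-06), and its mock cultures at -2.59 to -1.65 lay far below its control glomeruli at 5.36 and 5.86. Dpp4 (-3.93, SE 0.35, 15.2-fold, adjusted p = 3.77e-05), Thsd7a (-3.83, SE 0.11, 14.2-fold, adjusted p = 1.2e-07) and Enpep (-3.38, SE 0.38, 10.4-fold, adjusted p = 1.27e-04) came next. Plce1 (-2.76, SE 0.20, 6.76-fold, adjusted p = 1.22e-05), Pla2r1 (-2.60, SE 0.35, 6.06-fold, adjusted p = 3.54e-04) and Mme (-1.75, SE 0.26, 3.35-fold, adjusted p = 6.64e-04) fell less. Nes was the exception: mock cultures at 5.72 to 5.80 lay between the 2 control glomerular arrays, and the difference was -0.18 (SE 0.24, 95% interval -0.74 to 0.39, adjusted p = 0.548), with -0.64 (adjusted p = 0.0222) without control replicate 1 and 0.29 (adjusted p = 0.215) without control replicate 2. Glomeruli hold endothelial, mesangial and other cells beside podocytes, and the tissues were on different slides, so cell make-up, culture and slide cannot be told apart here.

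**Figure D5:**
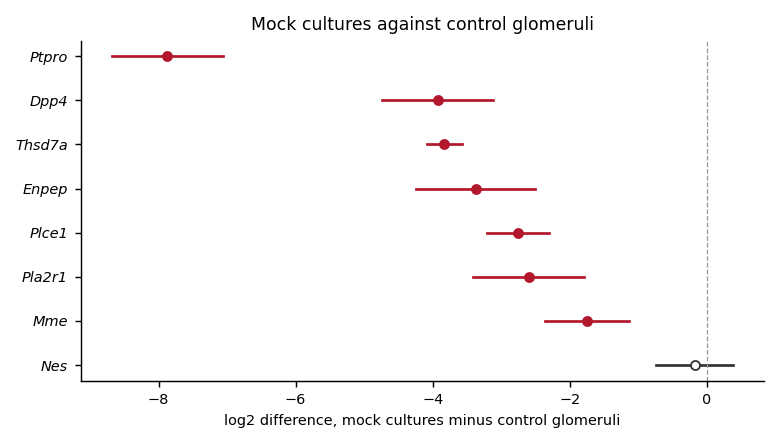
Log2 difference of the 8 genes between mock cultures (day 4 and day 7 averaged) and control glomeruli; lines are 95% intervals and filled red symbols mark an adjusted p under 0.05. Ptpro lies at -7.87, Mme at -1.75, and Nes, the open symbol, at -0.18.

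Other podocyte genes ran the same way in this comparison, with 14 of 19 other markers lower, 3 higher and a median of -1.96; Cdkn1c, a cyclin-dependent kinase inhibitor gene, fell by 8.14. Of 16 other surface genes 9 were called lower and 4 higher, Robo2 with the widest gap (-6.98, SE 0.31, adjusted p = 1.04e-06). Of 15 other peptidases 11 were called lower and 3 higher, led by Mep1a, which was not well above background in mock cultures (at least 233-fold lower, adjusted p = 4.92e-08). The other nephropathy antigens had 6 of 10 genes called higher and 2 lower. Pcdh7 was not well above background in control glomeruli and was at least 25.7-fold higher in mock cultures (adjusted p = 7.66e-06), and Ncam1 was 2.82 higher (adjusted p = 9.72e-05). All 14 endothelial markers were called lower, as were 21 of 22 tubule markers. The fibroblast markers had 4 of 7 called higher and 2 lower (median 1.99), and the parietal epithelial markers 5 of 8 and 2 (median 2.40). Of 12 mesangial and mural markers 3 were called higher and 8 lower. Their sum was 466 to 559 in mock cultures, against 49.0 to 94.9 in control glomeruli. The fibroblast sum was 71.3 to 149, against 19.6 to 35.3, and the podocyte marker sum 202 to 212, against 547 to 724. Of 16 other receptor-type phosphatases 6 were called higher and 8 lower, of 13 other phospholipases C 5 and 5, and of 9 other intermediate filament genes 4 and 4.

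The order of the 6 group means differed between genes. For Thsd7a, Dpp4 and Ptpro it was control glomeruli, tamoxifen glomeruli, mock cultures and then tamoxifen cultures, with day 4 above day 7 within each treatment for all 3; the day 4 and day 7 groups of one treatment, and mock day 7 with tamoxifen day 4, overlapped for Dpp4, as did the days for the tamoxifen cultures of Ptpro. Enpep and Mme shared another order, control glomeruli, tamoxifen glomeruli, tamoxifen cultures and mock cultures, in which the 2 glomerular groups overlapped, as did the 2 days of each treatment. Pla2r1 and Plce1 were lower in all culture groups than in both glomerular groups, and their day 4 and day 7 values overlapped within each treatment. Nes had its highest mean in tamoxifen cultures at day 4 and its lowest in tamoxifen glomeruli. Across the 8 culture arrays, which share the treatment, Thsd7a correlated with Ptpro at r = 0.90 and Dpp4 with Ptpro at r = 0.92, while Enpep correlated with Nes at r = 0.89, with Mme at r = 0.68, with Ptpro at r = -0.86 and with Dpp4 at r = -0.89. Over all 12 arrays the profiles of single genes outside the set were compared with each of the 8, and these arrays share the wide step between glomeruli and culture. The closest by Pearson r were Abca9 to Ptpro (0.998), Mllt6 to Dpp4 (0.995), Naip5 to Plce1 (0.996), Serpine2 to Pla2r1 (0.995), Rbms2 to Thsd7a (0.994), Myo7a to Enpep (0.990), Etl4 to Mme (0.979) and Aplp1 to Nes (0.914). Robo2, a podocyte surface receptor, was the third closest to Ptpro (0.997), while Serpine2, the closest to Pla2r1, is on the mesangial and mural list. These values describe 12 arrays and carry no test.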

How the data were processed

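Total RNA of 12 samples in 6 groups of 2 was measured on one-colour arrays. The authors scanned the arrays and deposited spot intensity from Agilent Feature Extraction 11.5.1.1, per the submitters' processing notes and the file headers, together with a table of log2 values; each column of that deposited log2 table tracked the values computed here at r = 1.0, at a median offset of 0.094 to 0.12 and column medians of -4.14 to -3.81, so its scale and direction were plain and the origin of the offset was not given in the sources used here. The processed signal was divided by each array's 75th percentile and put on the log2 scale, without control spots and the 83 to 134 outlier spots per array, and replicate spots were averaged. Of 39429 probes, 26581 had 1 gene symbol through the RefSeq accession matched to a table of GRCm38.p6, 0 had several and 12848 had none. A probe was kept if 2 or more of the 12 arrays had it well above background (26414 probes, 19994 of them named), and the brightest probe stood for a gene. limma 3.58.1 in R 4.3.3 fitted 6 group means over all 12 arrays with no block, on 6 residual degrees of freedom, with Benjamini-Hochberg adjustment over 15226 genes and calls at 0.05; the fit was tested on simulated data. With 2 samples against 2, an exact two-sided permutation test cannot go below p = 0.333, so all tests rest on the spread pooled over groups. The labels do not say what a replicate number marks. Same-numbered samples deviated together in all 6 pairs of culture groups (r = 0.39 to 0.55), where replicate number also went with position on the slide. Blocked values stand beside culture results whose call they change, and beside the gap of Enpep between glomeruli and cultures. That choice was made with the blocked calls known. The 2 glomerular groups (r = 0.21) come from different mice, and the block pairs them by number only. Precision is limited by how few arrays there are.

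The members and gene lists were chosen with earlier results of these data known. Named were all 8 members, up to 4 called genes of each other list by size of difference (2 where none was called), and per member the 3 genes with the highest Pearson r. Alternatives covered background, scaling, the filter on dim probes, the probe rule, the variance model, the replicate block, the deposited table, the arrays in the fit and each array left out; the mean over both culture days was added after the data were seen. Not every gene that this rule allows is named, and 1 is not reported here.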

Additional observations from a re-analysis of the deposited data

How the results depend on the processing

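The direction of most of the 8 genes' differences held, and the number of calls moved widely. The labels do not say that replicate numbers mark a shared mouse, culture or day. Deviations of same-numbered samples correlated between culture groups and, at -0.04 to 0.09, not between glomeruli and cultures. The pairing of cultures thus rests on the data alone. The blocked fit also paired the glomerular arrays by number, although they come from different mice. Its glomerular values, and those for glomeruli minus cultures, therefore rest on a pairing without a basis in the labels. With the replicate block, all-gene calls were 943 in glomeruli (396 without), 236 at day 4 (32), 641 at day 7 (148), 701 for glomeruli minus cultures (166), 0 for mock day 7 against day 4 (5, and 1425 at an unadjusted p under 0.05) and 1996 averaged over days (777), and members called were 4, 1, 3, 1 (glomeruli minus cultures) and 6 (averaged). The calls added by the block were Dpp4, Plce1 and Ptpro in glomeruli (adjusted p 0.0378, 0.0295 and 0.0442), Enpep at day 4 and 7 (0.0402 and 0.02), Dpp4 and Ptpro at day 7 (0.0172 and 0.0389) Enpep for glomeruli minus cultures (0.0256), and Dpp4, Mme and Nes averaged over days (0.00552, 0.0197 and 0.0343).

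normexp was run on median spot signals, since the files hold no mean signal. It gave 5 calls in glomeruli, 5068 at day 4, 57 at day 7, 4 for glomeruli minus cultures and 0 for mock day 7 against day 4 (160 at an unadjusted p under 0.05), with 0 members in glomeruli (Thsd7a -1.03, adjusted p = 0.0736) and 3 at day 4 (Enpep, Mme and Thsd7a). Its 5th percentile was -1.30 and -2.52 on the day 4 tamoxifen arrays, against -3.71 to -2.98 on the others, and the day 4 median of all genes was 0.19. It turned round Pla2r1 and Plce1 at day 4 (0.70 and 0.45) and averaged over days (0.21 and 0.16), Dpp4, Pla2r1 and Ptpro for glomeruli minus cultures (-0.038, -0.37 and -0.90) and the tubule gene Slc5a12 averaged over days (0.51). Scaling to the median turned Nes to 0.060 in mock cultures against glomeruli. Without the filter on dim probes the counts were 258 (glomeruli), 106 (glomeruli minus cultures) and 10 (mock days), and with at least 6 arrays above background 217, 104 and 2. Quantile normalization gave 52 at day 4 and 3 for mock days; trend and robust options gave 82 and 0 (870 at an unadjusted p under 0.05). Using only the arrays compared left 0 calls in glomeruli, 0 at day 4, 1 at day 7 and 0 for mock days, with 2050, 2230, 1500 and 859 genes at an unadjusted p under 0.05 and 0 members called in glomeruli (Thsd7a adjusted p = 0.266). Beyond what is stated of their construction, the causes were not tested.

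Leaving out 1 array at a time, all-gene calls ran from 89 to 495 in glomeruli, 7 to 78 at day 4, 9 to 238 at day 7, 0 to 1 for day 7 minus day 4, 6 to 368 for glomeruli minus cultures, 0 to 7 for mock days, 8248 to 9594 for mock cultures against glomeruli and 225 to 927 averaged over days. Members called ran from 0 to 1 in glomeruli and at day 7, 0 to 4 averaged, 7 to 8 in mock cultures against glomeruli, and stayed at 0 elsewhere. Signs turned within these ranges for Mme (-0.72 to 0.077), Nes (-0.81 to 0.12) and Pla2r1 (-0.72 to 0.37) in glomeruli, Plce1 at day 7 (-0.41 to 0.046), Dpp4 (-0.081 to 0.46), Pla2r1 (-0.25 to 0.84) and Ptpro (-0.18 to 0.59) for glomeruli minus cultures, and Nes in mock cultures against glomeruli (-0.64 to 0.29). A lone array left in a group was assumed to vary like the others. Slide as a block was not run, since each slide holds whole groups and cannot move a difference within it; glomeruli minus cultures uses all 12 arrays, so it has no fit on fewer. Pla2r1, Plce1 and Ptpro in cultures read closest to background.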
